A study of Mus musculus with 3 samples.

Results

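Genes of cholesterol synthesis and of steroid production by fetal Leydig cells were examined in male mouse gonads at stage E14.5. The set was made of 36 genes named by symbol. It held 15 enzymes of sterol synthesis, 4 regulators of that pathway and 17 genes of steroid-producing cells. An array probe annotated to the symbol was found for 29 of the 36, with 53 probes in all, out of 32664 named probes for 19532 genes. All 15 enzymes and all 4 regulators were measured, against 10 of the 17 steroidogenic cell genes. Cyp11b1, Cyp19a1, Srd5a1, Fdxr, Por, Insl3 and Lhcgr had no probe under their symbol and were not analysed here.

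The study compared 3 genotypes of whole embryonic gonads, each given as a single column of one-colour Agilent array values whose title names replicates 1 and 2. The control gonads were heterozygous for Nanos2, an RNA-binding protein of fetal male germ cells, and for Stra8, the retinoic acid-induced factor of meiotic entry (Nanos2+/- Stra8+/-). The second group lacked Nanos2 and was heterozygous for Stra8 (Nanos2-/- Stra8+/-, the Nanos2-null column below). The third was labelled as lacking both (Nanos2-/- Stra8-/-, the labelled double-null column below). Every group therefore carried at least 1 mutant allele of each gene, and no wild-type gonad was among the samples. The labels do not say how the alleles were made or whether gonads were pooled. Both targeted genes act in germ cells, whereas the genes described here belong to all cells or to somatic cells of the testis. A single column stood for each genotype, so nothing could be tested, no error between replicates could be had, and each value below describes these columns only.

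Cholesterol is built from acetyl-CoA through mevalonate, isoprenoid units and squalene, and most of the enzymes are switched on together by the transcription factor SREBP-2 when sterols in the cell run low. Fetal Leydig cells take up or make cholesterol, move it into mitochondria and convert it to androgens, which masculinise the embryo. Steroid genes are driven in these cells by the nuclear receptor SF-1, encoded by Nr5a1. In the mouse fetal testis, the final step to testosterone is carried out in Sertoli cells, which express Hsd17b3.

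The promoters of 4 genes are shown because Hmgcs1 and Idi1 had the largest upward differences of the enzymes in the labelled double-null column, Hsd17b3 had the largest downward difference of all members, and Cyp11a1 is the gene of the first steroid step. Each window runs from 250 bases before to 50 after an annotated start, taken from RefSeq on GRCm38.p6. Capitals mark matches on either strand to 4 motifs, which are the SREBP sterol element TCACNCCAC, the SF-1 site CAAGGTCA, the E-box CACGTG and the CCAAT box bound by NF-Y, a partner of SREBP. The Hmgcs1 window is chr13:119690101-119690400 on the plus strand and the Idi1 window chr13:8885356-8885655 on the plus strand. The Hsd17b3 window is chr13:64089152-64089451 on the minus strand and the Cyp11a1 window chr9:57997774-57998073 on the plus strand. Cyp11a1 has a further window in the table, at chr9:58014702-58015001, in which no motif was matched.
Hmgcs1: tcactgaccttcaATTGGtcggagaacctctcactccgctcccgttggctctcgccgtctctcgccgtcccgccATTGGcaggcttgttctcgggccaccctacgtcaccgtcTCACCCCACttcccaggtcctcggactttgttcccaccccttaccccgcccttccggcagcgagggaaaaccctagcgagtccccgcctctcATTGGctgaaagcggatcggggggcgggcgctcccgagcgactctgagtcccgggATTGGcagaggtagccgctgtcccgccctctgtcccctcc
Idi1: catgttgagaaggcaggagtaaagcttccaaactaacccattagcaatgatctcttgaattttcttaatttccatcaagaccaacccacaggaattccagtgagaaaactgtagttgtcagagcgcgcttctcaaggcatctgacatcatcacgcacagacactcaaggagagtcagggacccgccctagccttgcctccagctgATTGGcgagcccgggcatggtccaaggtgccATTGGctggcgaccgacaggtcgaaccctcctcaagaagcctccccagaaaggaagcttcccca
Hsd17b3: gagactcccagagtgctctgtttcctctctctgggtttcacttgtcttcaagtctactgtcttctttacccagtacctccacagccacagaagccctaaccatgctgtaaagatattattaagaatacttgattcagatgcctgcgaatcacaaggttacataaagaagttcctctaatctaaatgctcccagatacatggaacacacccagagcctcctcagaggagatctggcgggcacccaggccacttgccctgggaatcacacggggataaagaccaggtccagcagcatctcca
Cyp11a1: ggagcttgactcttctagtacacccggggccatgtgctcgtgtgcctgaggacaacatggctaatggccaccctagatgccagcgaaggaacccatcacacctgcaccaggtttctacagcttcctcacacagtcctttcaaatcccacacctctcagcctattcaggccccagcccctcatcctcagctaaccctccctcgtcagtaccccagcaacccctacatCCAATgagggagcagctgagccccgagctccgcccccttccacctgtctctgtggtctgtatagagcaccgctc

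The CCAAT box was found in the promoters of the sterol enzymes more widely than in those of the steroid genes. The promoter table held 12 of the 15 enzymes, and all 12 had a CCAAT match in at least 1 of their windows. Over all genes of the table the share was 41.1%, and per window it was 12 of 15 for the enzymes against 37.4% of all 32851 windows. Of the 11 steroidogenic cell genes in the table, 5 had a match, among them Cyp11a1 and Hsd3b1. In Hmgcs1, which encodes HMG-CoA synthase, a CCAAT match began at position -45 from the start and the sterol element TCACCCCAC at position -137. Fdft1, Fdps, Sqle, Star, Scarb1, Cyp17a1, Hsd17b1, Cyp21a1 and Cyp11b1 had no window and were not searched. Among the members with a window, Hmgcs1 was the only gene with a sterol element match, held by 1.24% of all windows. The E-box was found in Hsd17b7, Dhcr7, Insig1 and Scap, and in 8.09% of all genes of the table. The SF-1 site, held by 1.76% of all genes, was matched only in a window of Dhcr7. It was matched in none of the 11 steroidogenic cell genes with a window, which says no more than that these letters are not in these windows. No matches overlapped each other in the 4 sequences printed above, which held no E-box and no SF-1 site.

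**Figure D1:**
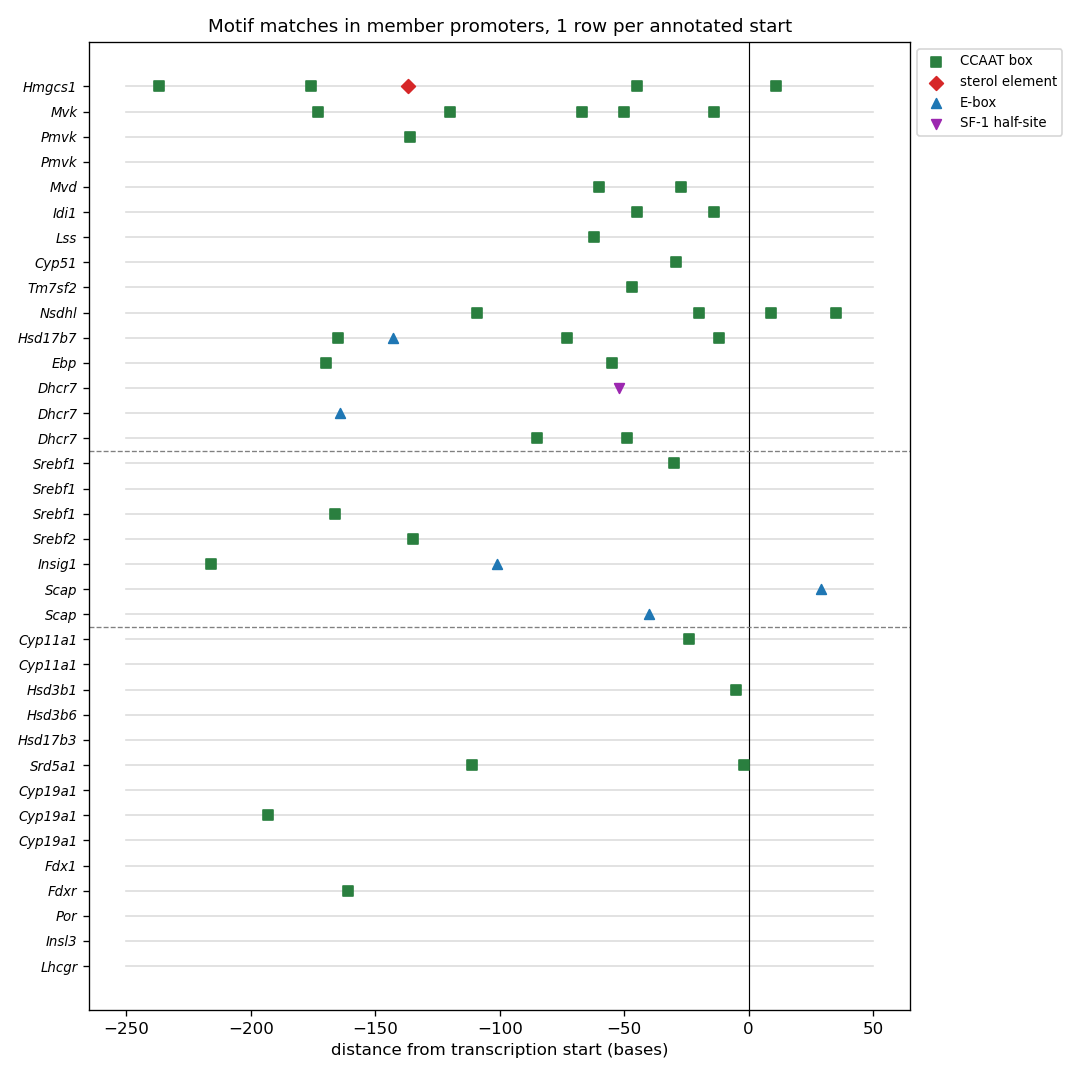
Motif matches in 36 promoter windows of member genes, 1 row per annotated start, with the distance from the start in bases on the horizontal axis. Dashed lines separate the sterol enzymes, the sterol regulators and the steroidogenic cell genes, and CCAAT matches (squares) lie in all 12 enzyme genes.

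The deposited values are ratios. The middle of the 3 values is close to 1 for most member probes, as it would be after a scaling of each probe by its own level. The divisor is not known, and 7552 of all 41174 probes lie below 0.7 in all 3 columns. A scaling to the middle of the 3 values therefore does not describe every probe. A value near 1 was taken to say nothing about brightness, and levels of different probes were not compared. Differences between columns are unaffected by any divisor that the 3 values of a probe share. They are given on the log2 scale as the mean over the probes of a gene. All 53 member probes had values between 0.474 and 1.36. None belonged to the class of 7552 probes lying below 0.7 in all 3 columns. Because the values are relative, they cannot show how strongly the defining Leydig genes Star, Cyp11a1, Cyp17a1 and Hsd3b1 were expressed, and the label of the set could not be checked against them. In whole gonads, fewer cells of a type and less RNA per cell cannot be told apart.

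The columns had different centres, which bears on every small difference below. The median difference over all genes was 0.04 for the Nanos2-null column minus control. It was 0.18 for the labelled double-null column minus control and 0.16 for that column minus the Nanos2-null column. The median of 0.18 became 0.09 after each column was divided by its median and 0.03 after quantile normalization. The targeted genes gave values of 87.2, 0.364 and 0.397 for Nanos2 and of 0.108, 1.13 and 1.34 for Stra8, in the order control, Nanos2-null and labelled double-null. The Nanos2 values go the way of the labels. The Stra8 probe, at its highest in the column labelled as lacking Stra8, has an unknown position relative to the deleted part, so that label was not checked by it.

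**Figure D2:**
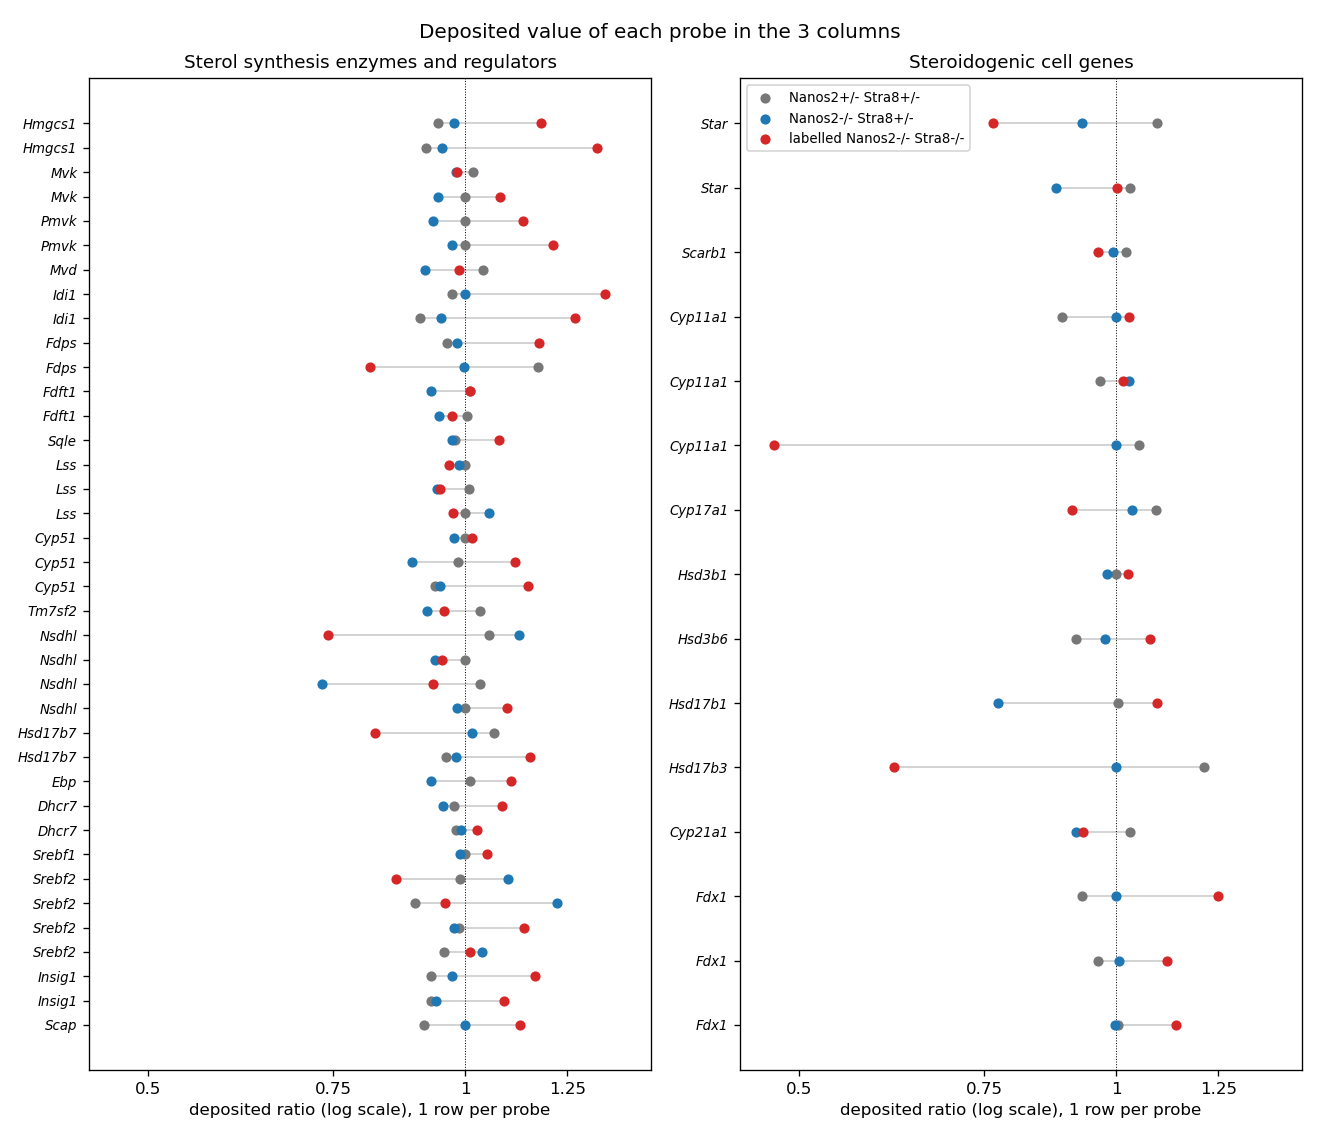
Deposited ratio of each of the 53 member probes (rows) in the control column (grey), the Nanos2-null column (blue) and the labelled double-null column (red), on a log axis. All points lie between 0.474 and 1.36, and the lowest is a probe of Cyp11a1 in the labelled double-null column.

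Loss of Nanos2 alone came with small differences throughout the set. None of the 29 measured genes was 2-fold higher or lower in the Nanos2-null column, where 2.35% of all genes were higher and 3.12% lower by that size. All 29 lay within 1.5-fold of control, as did 87.4% of all genes. The sterol enzymes lay slightly below control. Of the 15, 13 had a difference below 0, against 41.2% of all genes, and their median was -0.07, with a range from -0.18 for Mvd to 0.05 for Idi1. With the single probe of highest mean value per gene, 9 of the 15 lay below 0.

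By pathway stage, a split made after the values were seen, the enzymes from squalene onward were the more uniform. All 9 of them had differences below 0, with a median of -0.06 and a range from -0.17 to -0.01, although 6 of 9 did so with the probe of highest mean value per gene and 8 of 9 with RefSeq-annotated probes alone. Fdft1, squalene synthase, had a difference of -0.11 with both probes below 0. Nsdhl, which takes part in removing methyl groups from sterol intermediates, had a mean difference of -0.13 over 4 probes, but its probes ran from -0.50 to 0.09. Tm7sf2, a sterol reductase with 1 probe, lay at 1.03 in control and 0.920 in the Nanos2-null column, a difference of -0.17. The early enzymes were on both sides of 0. Mvd, mevalonate diphosphate decarboxylase, had values of 1.04 and 0.915, the lowest difference of the pathway at -0.18, while Hmgcs1 and Idi1 had differences of 0.05 and 0.05. The last 2 lay close to the all-gene median, and after division by the column medians Hmgcs1 lay at -0.0027.

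The regulators of sterol synthesis lay near or above control without Nanos2. Srebf2, which encodes SREBP-2, had a mean difference of 0.18 over 4 probes. Its probes went from -0.02 to 0.45, the highest resting on a probe with 0.896 in control and 1.22 in the Nanos2-null column. Scap, the escort of SREBP from the endoplasmic reticulum, had a difference of 0.13 by 1 probe. Insig1, which retains SREBP when sterols are plentiful, lay at 0.04, and Srebf1, the gene of the lipogenic SREBP-1, at -0.02. As reported, the 4 regulators and the 15 enzymes they serve had medians on opposite sides of the all-gene median, 0.09 and -0.07. This depended on the probes used. With the probe of highest mean value per gene, Srebf2 lay at -0.02 and the all-gene median was 0.04. Both group medians were then below it.

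The steroidogenic cell genes had a median difference of -0.06 over 10 genes, with 3 above 0, where 58.8% of all genes were. Star, which carries cholesterol into the mitochondrion, had values of 1.09 in control and 0.927 in the Nanos2-null column by one probe and of 1.03 and 0.877 by the other. Both Star probes were 1.18-fold lower. Hsd17b1, a reductase best known for estradiol formation, had the lowest difference of the set at -0.38, from 1.0 to 0.772 by 1 probe, or 1.30-fold lower. Hsd17b3 had a difference of -0.28, from 1.21 to 1.0. The core androgen genes moved less. Cyp17a1, the enzyme that turns progestins into androgens, had a difference of -0.07, Hsd3b1 of -0.03 and Cyp11a1, which cleaves the cholesterol side chain, of 0.06. Scarb1, a receptor for lipoprotein cholesterol, lay at -0.04. Hsd3b6 lay at 0.09. It is a close relative of Hsd3b1 on the same chromosome, so their probes may share signal. The median of the enzymes minus that of the steroidogenic cell genes was -0.01, and so the groups were not separated in this comparison.

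**Figure D3:**
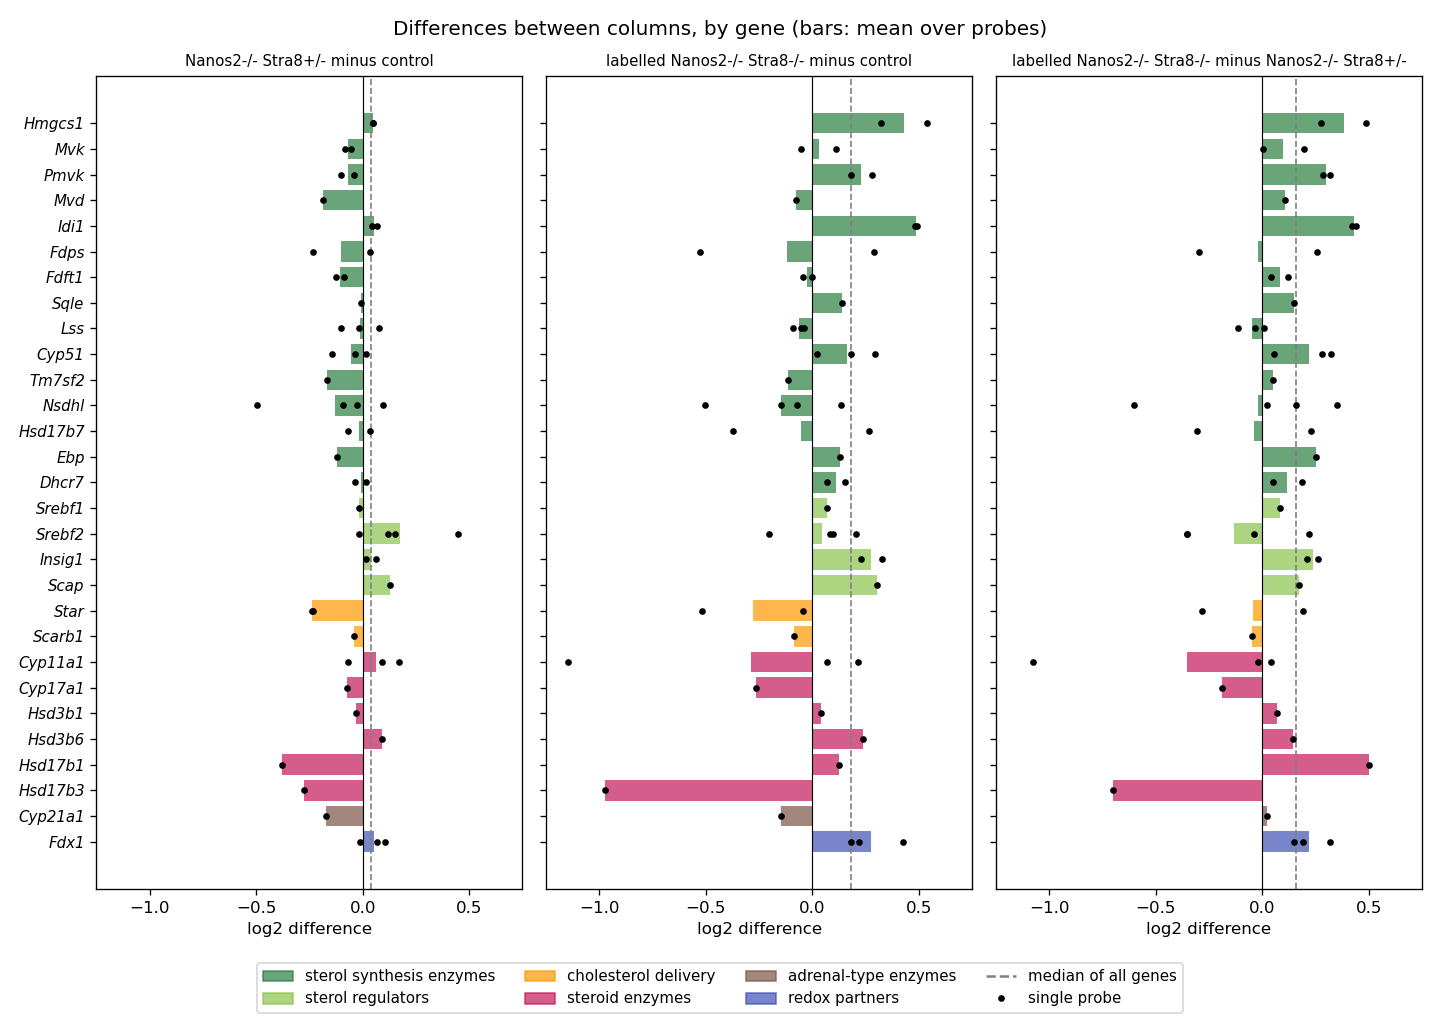
Log2 difference between columns for each of the 29 measured genes, as the mean over probes (bars, coloured by role) with single probes as points, for the 3 comparisons. The dashed line is the median of all genes, 0.04, 0.18 and 0.16 from left to right, and Hsd17b3 has the lowest bar in the middle and right panels.

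In the labelled double-null column the set was again without a member at 2-fold, but its members were more spread. None of 29 was at least 2-fold higher and none at least 2-fold lower than control, where 4.24% of all genes were higher and 2.81% lower by that size. Within 1.5-fold lay 28 of 29 members and 81.3% of all genes. The exception was Hsd17b3, one of the 6.28% of all genes at least 1.5-fold lower. The sterol enzymes had a median of 0.03 and the steroidogenic cell genes one of -0.12, a gap of 0.15 between the groups. Both medians were below the all-gene median of 0.18, and 3 of 15 enzymes and 2 of 10 steroidogenic genes lay above it. The count of enzymes was 6 with the probe of highest mean value per gene and 5 without probes below 0.7 in all columns. The sign of the enzyme median depended on the scaling, at -0.06 after division by column medians and -0.07 after quantile normalization, while the gap between the groups was then 0.15 and 0.12. With the median over probes in place of the mean the gap was 0.06.

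The upward side was held by early enzymes of the pathway. Idi1, which isomerises the isoprenoid unit isopentenyl pyrophosphate, had values of 0.971 in control, 1.0 in the Nanos2-null column and 1.36 in the labelled double-null column by one probe. By its other probe they were 0.906, 0.948 and 1.27. Hmgcs1 had values of 0.943, 0.976 and 1.18 by one probe and of 0.917, 0.950 and 1.33 by the other. For both genes, by both probes, the third column was the high one and the other columns lay close together. The difference from control was 0.49 for Idi1, or 1.40-fold, and 0.43 for Hmgcs1, or 1.35-fold. They were higher than 82.7% and 78.9% of all genes in this comparison, so differences of this size were common. Both remained above 0 under each scaling, at 0.32 and 0.26 after quantile normalization. Pmvk, phosphomevalonate kinase, followed at 0.23, with probes at 0.18 and 0.28, and was higher than 55.4% of all genes.

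The remaining early enzymes did not follow Idi1 and Hmgcs1. Mvk, mevalonate kinase, lay at 0.03 and Mvd at -0.08. Fdps, farnesyl pyrophosphate synthase, had probes that disagreed. Its RefSeq-annotated probe had values of 0.961, 0.982 and 1.17, and a probe annotated to a cDNA clone had 1.17, 0.997 and 0.813, so that the log2 differences were 0.29 and -0.53. The mean of -0.12 therefore describes neither probe. The 6 early enzymes had a median of 0.13 and the 9 from squalene onward one of -0.02. As reported, 0 of those 9 lay above the all-gene median of 0.18, a count that depended on the processing. With the probe of highest mean value per gene that median was 0.22, and Cyp51 at 0.29 and Hsd17b7 at 0.26 lay above it. Without probes below 0.7 in all columns it was 0.14, and 5 of all 15 enzymes lay above it, against 3 as reported.

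The late enzymes were spread around control. Cyp51, lanosterol demethylase, lay at 0.16, with probes at 0.02, 0.18 and 0.29. Sqle, squalene epoxidase, the rate-controlling oxidation after squalene, had values of 0.978, 0.972 and 1.08 and a difference of 0.14. Ebp, a sterol isomerase, lay at 0.13, a sign that turned to -0.017 after quantile normalization, and Dhcr7, which makes cholesterol from its immediate precursor, at 0.11. Each of these 4 was above control and below the all-gene median of 0.18. Fdft1 and Lss, lanosterol synthase, lay at -0.02 and -0.06, Tm7sf2 at -0.12 and Nsdhl at -0.15. Hsd17b7, a sterol ketone reductase, had a mean of -0.05 from probes at -0.37 and 0.26, which have opposite signs although both are annotated to the same RefSeq transcript.

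**Figure D4:**
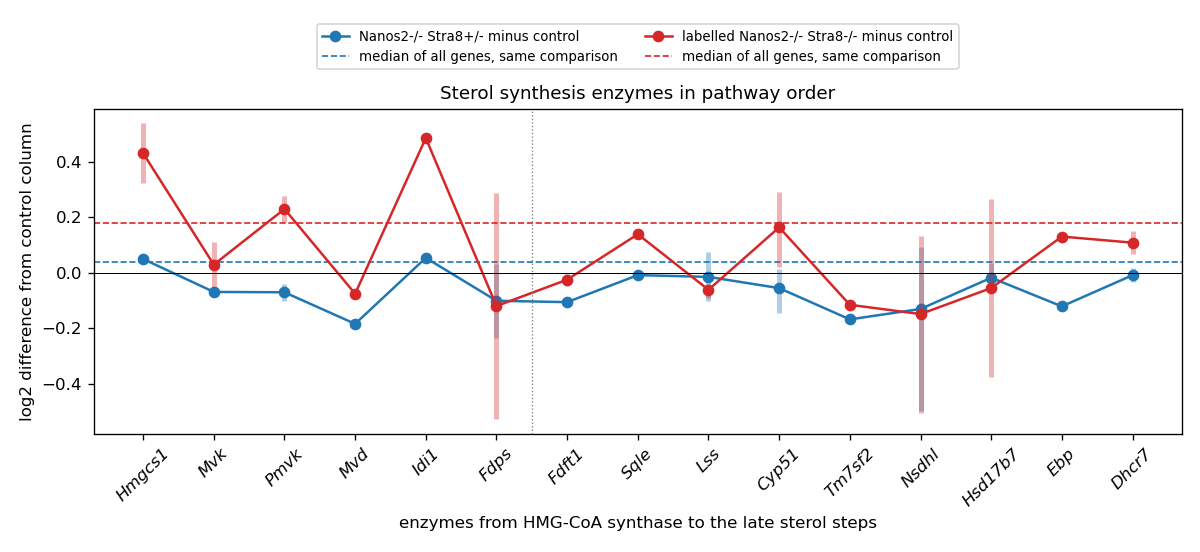
Log2 difference from control of the 15 sterol enzymes in pathway order, for the Nanos2-null column (blue) and the labelled double-null column (red), with vertical bars for the range over probes and dashed lines for the all-gene medians. A dotted line separates the enzymes up to Fdps from those that follow, and Idi1 and Hmgcs1 are the highest red points at 0.49 and 0.43.

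Among the regulators, Scap had a difference of 0.30 and Insig1 one of 0.28 in the labelled double-null column, where the all-gene median was 0.18. They were higher than 62.7% and 60.2% of all genes, so differences of this size were common. Insig1, itself a target of SREBP, had values of 0.929, 0.971 and 1.16 by one probe and 0.929, 0.939 and 1.09 by the other. Both probes had their highest value in the third column. Srebf1 lay at 0.07. Srebf2 lay at 0.04 with probes from -0.20 to 0.20, so no common direction was seen over its 4 probes.

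On the side of steroid production, Hsd17b3 had the largest difference of the set. Its single probe had values of 1.21 in control, 1.0 in the Nanos2-null column and 0.616 in the labelled double-null column. The control value was the highest and the third column the lowest, at 1.96-fold below control. Only 2.94% of all genes had a lower difference than its -0.97. After division by column medians the difference was -1.06, past 2-fold, and after quantile normalization it was -0.88. No second probe of Hsd17b3 was available to check it. Hsd17b3 is expressed by Sertoli cells at this stage, and the Sertoli markers had smaller differences, some of which changed sign with the scaling. All 8 Sertoli markers measured, among them Sox9, Amh and Fgf9, had differences above 0 in this comparison, as did 68.3% of all genes, from 0.01 to 0.32, with a median of 0.10 against 0.18 for all genes. After division by column medians, and after quantile normalization, 4 of the 8 were above 0.

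Cyp11a1 was the gene whose probes disagreed most. Its RefSeq-annotated probes had values of 0.889, 1.0 and 1.03, and of 0.966, 1.03 and 1.01. A probe annotated to a cDNA clone had 1.05, 1.0 and 0.474, or 2.22-fold below control in the labelled double-null column. The first pair showed no lower value in that column, with differences of 0.21 and 0.07, and the third had one of -1.15. The gene mean of -0.29 rests on the clone probe alone, and the RefSeq-annotated probes gave 0.14. Star likewise had 1 probe with 1.09, 0.927 and 0.763 and another with 1.03, 0.877 and 1.0, so that its differences were -0.52 and -0.04. Cyp17a1, with 1 probe at 1.09, 1.04 and 0.908, had a difference of -0.26, or 1.20-fold lower.

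The remaining steroidogenic cell genes lay on both sides of control. Hsd3b1 had values of 0.999, 0.979 and 1.03, a difference of 0.04. Hsd3b6 lay at 0.23 and Hsd17b1 at 0.12. Fdx1, the ferredoxin that passes electrons to CYP11A1 and other mitochondrial P450 enzymes, was the highest steroidogenic gene at 0.27, with all 3 probes above 0, from 0.18 to 0.43. It is also used outside steroid cells, and 60.0% of all genes had a lower difference. Cyp21a1, the adrenal-type enzyme known also from mouse fetal Leydig cells, had values of 1.03, 0.915 and 0.930 and a difference of -0.15, and Scarb1 lay at -0.09. Of the 7 fetal Leydig markers listed, Star, Cyp11a1, Cyp17a1, Hsd3b1 and Nr5a1 were measured. All but Nr5a1 are members of the set described above, so the counts that follow largely restate those values. In the labelled double-null column minus control 4 of these 5 lay below 0, as did 31.7% of all genes, 0 of 5 lay above the all-gene median, and their median was -0.28 against 0.18 for all genes. After division by column medians and after quantile normalization 5 of 5 lay below 0. With the probe of highest mean value per gene, and with RefSeq-annotated probes alone, 3 of 5 did so and the median was -0.04. The probes of Cyp11a1, Star and Nr5a1 disagreed within each gene, and Insl3 and Lhcgr were not analysed here.

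The column labelled Nanos2-/- Stra8-/- was then set against the Nanos2-null column, with the caution that this comparison shares a column with each of the others. None of 29 members was 2-fold higher or lower, against 2.06% and 1.01% of all genes. Within 1.5-fold lay 28 of 29 members and 90.3% of all genes. The enzymes had a median of 0.11, with 11 of 15 above 0, where 72.5% of all genes were. The steroidogenic cell genes had a median of -0.01, with 5 of 10 above 0, a sign that turned to 0.03 after quantile normalization. Idi1 at 0.43, Hmgcs1 at 0.38 and Pmvk at 0.30 were the highest enzymes, each with both probes above 0. Hsd17b1 was the highest member at 0.50, or 1.42-fold, since it returned from 0.772 to 1.09 near its control value of 1.0. Hsd17b3 was the lowest at -0.70, or 1.62-fold lower, with 2.0% of all genes below it, and 2.9% of all genes were at least 1.5-fold lower. The gap between the enzyme and steroidogenic medians was 0.12, and 0.04 after quantile normalization.

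The spread between probes of a gene was the only measure of error at hand. For the 16 members with 2 or more probes, the range between probes had a median of 0.08 with Nanos2 loss, 0.23 in the labelled double-null column minus control and 0.20 between the mutant columns. Over 8511 genes with 2 or more probes the medians were 0.20, 0.40 and 0.32. This spread is within columns and holds no variation between animals or arrays. The differences of Idi1, at 0.48 and 0.49 by its probes, and of Hmgcs1, at 0.32 and 0.54, had the same sign within each gene, and 13 of the 29 members had 1 probe and no such check.

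Further genes of the pathway, from lists written out with earlier results of these data known, held 1 gene at 2-fold in the comparisons of these columns. Few genes of the array did so either, for example 4.24% higher and 2.81% lower in the labelled double-null column minus control. Of 10 symbols listed for other sterol synthesis genes 5 were measured, and Sc4mol among the rest is a former symbol of the measured Msmo1. Of the 5, 0 differed by 2-fold in any comparison. Their median was 0.08 in the labelled double-null column minus control, against 0.18 for all genes. Lbr, a sterol reductase and nuclear lamina receptor, had values of 0.860, 0.999 and 1.36 by 1 probe and was 1.58-fold higher in the labelled double-null column than in control. Msmo1, a sterol methyl oxidase, had a RefSeq-annotated probe at 0.24 and a clone probe at -1.32 in that comparison. Of 14 genes of sterol uptake, storage and export 10 were measured, and 0 differed by 2-fold, with a median of 0.14 in the same comparison. Abcg1, a cholesterol exporter driven by oxysterols, came nearest with values of 0.674, 0.997 and 1.33, or 1.97-fold higher in the labelled double-null column. Stard4, a carrier of cholesterol within cells, had probes at 0.73, 0.79 and -0.50. Between the mutant columns Nr1h3 was 1.73-fold higher by 1 probe, and Lipe 1.57-fold lower as a gene mean. The clone probe of Lipe had values of 0.232, 1.03 and 0.311, or 4.45-fold higher in the Nanos2-null column than in control. Its RefSeq-annotated probes had differences of -0.24 and -0.28 there. The 7 fatty acid genes that SREBP also drives were all measured. Their median was 0.02 in the labelled double-null column minus control, against 0.18 for all genes. Acly, ATP citrate lyase, was at least 2-fold lower in the labelled double-null column minus the Nanos2-null column, as were 1.01% of all genes. Its RefSeq-annotated probe had a difference of 0.05 there and its clone probe one of -2.14.

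Regulators of steroid cells and genes of Leydig progenitors also stayed within 2-fold as gene means, as did most genes. In the labelled double-null column minus control, 4.24% of all genes were 2-fold higher and 2.81% lower. With Nanos2 loss the shares were 2.35% and 3.12%, and between the mutant columns 2.06% and 1.01%. Counts of 0 in lists this short are near those shares. Of 8 steroidogenic regulators, all measured, 0 differed by 2-fold, with a median of 0.06 with Nanos2 loss and 0.19 in the labelled double-null column minus control. Nr0b1, the gene of the SF-1 antagonist DAX1, was the highest, with values of 0.798, 0.999 and 1.48 and a difference of 0.89 from control in the third column. Nr5a1 had a probe at 1.0, 1.01 and 0.974 and another at 1.06, 1.01 and 0.405, which again disagreed in the third column. Of 11 genes of Leydig progenitors and hedgehog signalling 10 were measured, and 0 reached 2-fold or 1.5-fold. In the labelled double-null column minus control 81.3% of all genes lay within 1.5-fold, and the median of the list was 0.12. Tcf21, a factor of gonadal stromal progenitors, was the highest at 0.52 in that comparison. Dhh, the hedgehog ligand of Sertoli cells, lay at 0.30 and its target Gli1 at -0.09 in the same comparison, against 0.18 for all genes. Of the same list, Ptch1 lay at 0.15, with probes from -0.48 to 0.89, and Hhip at -0.10.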

How the data were processed

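RNA from male gonads was amplified to Cy3-labelled cRNA and hybridised to one-colour Agilent arrays, per the labels' protocols. The submitters' processing notes name Agilent Feature Extraction 9.5. The deposited values are linear ratios in 3 columns. Their normalization, the scaling between arrays and the way in which replicates 1 and 2 were combined are not given in the sources used here. From 41267 entries, 93 control spots were left out. Of the remaining 41174 probes, 32664 had 1 gene symbol in the platform's annotation, 45 had several and 8465 were not listed. Symbols were checked by gene identifier against RefSeq for GRCm38.p6, in which 32524 were found, and 0 symbols changed. A gene's difference is the mean log2 difference between columns over its probes, with no filter and no pseudocount. Counts used 2-fold and 1.5-fold. The counting steps were tested on simulated data. Motifs were searched in RefSeq promoter windows with no test.

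The genes named were all measured members, with values per probe for those past 1.5-fold or with a defining role, up to 4 genes of each other list and the targeted genes. Stard4, Gli1, Ptch1, Hhip and the single probes of Cyp51, Fdps, Pmvk and Hsd17b7 were chosen after their values were seen. The members and lists were chosen with earlier results of these data known. The alternatives were the probe of highest mean value, the median over probes, division by column medians, quantile normalization, a filter at 0.7, a pseudocount of 0.1, a 1.5-fold limit, every probe past 2-fold, and RefSeq-annotated probes alone, the last chosen after seeing the data. Python 3.11.15, pandas 2.3.3, numpy 2.4.6 and matplotlib 3.10.9 were used.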

Additional observations from a re-analysis of the deposited data

How the results depend on the processing

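No paired analysis was possible because each genotype was represented by a single column, and no replicate could be left out for the same reason. A value was taken as moved when it shifted by more than 0.1 on the log2 scale, a limit set without replicate error. Of 84 recomputed list medians and gaps between them, 81 stayed within that limit and 10 changed sign, each of them within 0.04 of 0 as reported. The median of the sterol synthesis enzymes in the labelled double-null column minus control was 0.03, and it was 0.14 with the probe of highest mean value per gene and -0.072 after quantile normalization. The median of the steroidogenic cell genes in that comparison was -0.12, and -0.0020 with the probe of highest mean value. The count of members at least 2-fold lower there was 0, and 1 after division by column medians or at 1.5-fold. In the labelled double-null column minus the Nanos2-null column it was 0, and 1 at 1.5-fold. The gene was Hsd17b3 each time. The other 51 of 54 recomputed counts stayed at 0. Of 609 recomputed differences of single members, 57 shifted by more than 0.1 and 40 changed sign, and 0 of the 87 differences passed 2-fold as reported. Over all genes, a pseudocount of 0.1 lowered the count at least 2-fold higher between the mutant columns from 403 to 267. Signal over background is unknown, so the distance of any probe from background could not be weighed.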

Other observations

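Some genes had both RefSeq-annotated probes and probes annotated to a cDNA clone accession beginning with AK. Of the 5 measured members with both kinds, Cyp11a1, Fdps, Nsdhl and Lss had lower clone probes in the labelled double-null column minus control, and Srebf2 had not. Over 2900 genes with both kinds, the clone probes gave the lower difference in 57.3%, with a median gap of -0.12. They were lower by at least 1 on the log2 scale for 351 genes and higher by at least 1 for 166. In the Nanos2-null column minus control the clone probes were lower in 48.6%, with a median gap of 0.01, and the counts at that size were 79 and 122. Among the 5 members they were lower for 4 there too, with a median gap of -0.20. Between the mutant columns they were lower in 58.8% of the 2900 genes, with counts of 294 and 81, and for 3 of the 5 members. This pattern was noticed in the members first and its cause was not tested.

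The adrenal cortex shares its steroid enzymes with fetal Leydig cells, and its 4 measured markers, of 6 listed, stayed within 1.5-fold in all 3 comparisons. So did 87.4% of all genes with Nanos2 loss, 81.3% in the labelled double-null column minus control and 90.3% between the mutant columns. Mc2r, the ACTH receptor of adrenal and mouse fetal Leydig cells, had values of 1.09, 1.06 and 0.919, and Mrap, its accessory protein, values of 1.02, 0.982 and 0.991. Cyp11b2, the aldosterone synthase gene, belonged to the probes below 0.7 in all columns, with 0.332, 0.469 and 0.421.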
